A study of Caenorhabditis elegans with 4 samples.

Results

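The regions described here were the broad LIN-13 peaks, that is, the rows of the combined peak list that were 900 bp or wider (end minus start plus 1). They were chosen by their width in that list alone and numbered 234 of the 911 peaks of that list (25.7%), and 677 narrower peaks made up the rest. They came from a chromatin immunoprecipitation sequencing (ChIP-seq) study of Caenorhabditis elegans with 2 ChIP libraries and 2 input libraries, which asked where LIN-13 lies on the chromosomes in living animals. All libraries were from hermaphrodites of strain OP49 at the first larval stage (the labels write L1 26dC and do not explain 26dC) grown at 20 °C. The strain carries the mutation unc119(ed3) and the transgene wgIs49(lin-13::TY1 EGFP FLAG;unc119), introduced by bombardment and outcrossed. The tagged protein was precipitated with an antibody against GFP. There was no group without the tag and no second stage, and no source used here gives the number of transgene copies. The titles, which set the groups here, call the libraries with peak lists ChIP, although their free-text descriptions read input DNA.

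LIN-13 is a large nuclear protein with many zinc fingers and belongs to the synthetic multivulva class B (synMuv B) genes, whose products repress transcription in the worm soma. It is known to bind HPL-2, a worm homologue of heterochromatin protein 1, and to act in the same genetic pathway as LIN-35, the worm retinoblastoma protein. SynMuv B proteins are known for keeping germline genes silent in somatic cells of larvae and for limiting vulval fates. In a ChIP experiment for a factor that binds short DNA sites, a called peak is usually about as wide as the sheared fragments. A wide call is a longer stretch that the caller reported as 1 peak. The lists do not show whether every part of it passed the caller's limit. No gene is named below, because no annotation of the build of these coordinates, WormBase WS180, was used here.

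The data were 3 lists: the combined list, and the lists of ChIP replicate 1 (243 peaks) and ChIP replicate 2 (367 peaks). Each row holds a position and a q-value of the authors (their p-value after multiple-testing correction), and a peak with a lower q is called stronger here. The lists hold no read counts, so sequencing depth is unknown, and q itself depends on depth and on width. Whether the replicates were separate cultures is not stated in the labels. Width in the combined list chose the members, the replicate lists may rest on the same reads, and peaks of a list are not replicates of the experiment. The comparisons with the narrower peaks are therefore descriptions, and no test was made. Shares carry exact (Clopper-Pearson) 95% intervals and medians carry 95% intervals from binomial order statistics. Both cover counting error over peaks only.

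The broad peaks, chosen for their width, held most of the called length. They covered 424 kb of the 763 kb in the combined list, which is 55.5% of the bases in 25.7% of the peaks. Their median width was 1336 bp, with quartiles at 1050 and 2130 bp, and they ranged from 900 to 15816 bp. The narrower peaks had a median width of 463 bp. By width, 36 members lay between 900 and 1000 bp, 98 from 1000 to under 1500 bp, 34 from 1500 to under 2000 bp, 42 from 2000 to under 3000 bp, and 24 were 3000 bp or wider.

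The limit of 900 bp cut through a continuous range of widths. The members just inside it were X 17505473 to 17506372 (900 bp, q = 5.81e-05), V 2672240 to 2673140 (901 bp, q = 1.17e-09) and III 1533156 to 1534059 (904 bp, q = 1.76e-10). The peaks just outside were I 6835167 to 6836064 (898 bp, q = 8.32e-15), III 4196189 to 4197085 (897 bp, q = 5.92e-05) and I 10516709 to 10517600 (892 bp, q = 1.07e-13). Strong and weak peaks stood on both sides of the limit.

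**Figure D1:**
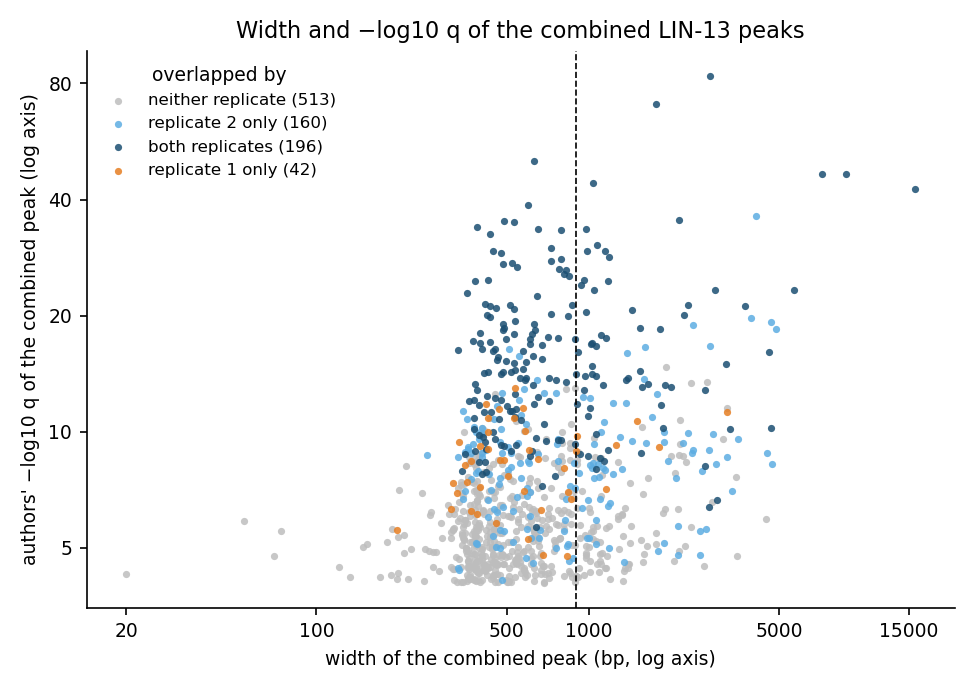
Each point is a combined peak, with its width in bp on a log axis and the authors' −log10 q on a log axis, coloured by the replicate lists that overlap it by at least 1 bp. The dashed line marks 900 bp. The 234 peaks to its right reach from 900 to 15816 bp. Their −log10 q runs from 4.11 to 83.6, the highest value of the list.

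Most of the 12 strongest regions of the list were broad. Of the 12 combined peaks with the lowest q, 8 were members. The strongest, X 16929246 to 16932023, was 2778 bp wide and stood at q = 2.61e-84. Replicate 1 covered 95.9% of its length and replicate 2 covered 99.3%. X 1503457 to 1505228 followed, 1772 bp wide, with 92.6% covered by replicate 1 and 99.0% by replicate 2. At both regions the replicates drew nearly the same edges as the combined list.

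The other strong members were of several widths. X 8035912 to 8036951, at 1040 bp, was covered to 89.4% by replicate 1 and whole by replicate 2. IV 8431268 to 8433409 was 2142 bp wide and stood at q = 3.80e-36, and the replicates covered 90.5% and 87.2% of it. At this region replicate 1 and replicate 2 covered different ends, so that every base lay in a peak of at least 1 of them. I 7656502 to 7660629, 4128 bp wide with q = 4.68e-37, differed from the rest of these 8 strongest members: replicate 2 covered 93.2% of it and replicate 1 had no peak there.

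A further 3 very wide regions were also among the strongest. The widest, II 10541844 to 10557659, was 15816 bp wide. Replicate 1 had 2 peaks in it, of 2725 bp (q = 1.89e-12) and 7482 bp (q = 6.76e-06), the latter being the widest peak of that replicate. Replicate 2 had 3 peaks, of 3612 bp (q = 6.49e-20), 5823 bp (q = 4.31e-05) and 1461 bp (q = 1.06e-05). In both replicates the strongest call lay at the left edge of the region, and the wider call beside it was weak for its list, at rank 192 of 243 in replicate 1 and rank 364 of 367 in replicate 2. Replicate 1 and replicate 2 covered 64.5% and 68.9% of the length, and 55.7% lay in peaks of both.

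I 7079171 to 7087961, 8791 bp wide, was a single peak of 7033 bp in replicate 1 (q = 5.10e-10) and was split by replicate 2 into peaks of 1103 and 5709 bp. The shares covered were 79.3% in replicate 1 and 76.5% in replicate 2, and both lists left the right end of the region uncalled. V 6223040 to 6230245, 7206 bp wide, was a single call in both lists, of 6003 bp in replicate 1 and 7154 bp in replicate 2, the widest peak of replicate 2. There the shares were 83.3% and 99.3%.

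Of the 12 widest members, 11 were overlapped by replicate 2 (91.7%, interval 61.5 to 99.8, against 39.1% of all combined peaks). Replicate 1 overlapped 6 of them (50%, interval 21.1 to 78.9, against 26.1% of all combined peaks, a share inside this interval). X 6740295 to 6745957, 5663 bp wide, was covered to 93.3% by replicate 1 and 66.9% by replicate 2. III 7707907 to 7712562, 4656 bp wide, was covered to 66.9% and 73.6%, and X 6251588 to 6256170, 4583 bp wide, to 72.4% and 37.8%. These 3 were therefore called over most of their length by at least 1 replicate.

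Among the 12 widest, the members called by replicate 2 alone were covered to varied extents. The highest share was the 93.2% of I 7656502 to 7660629. IV 17276937 to 17281802, 4866 bp wide, held 2 replicate 2 peaks that together covered 50.9% of it, with an uncovered middle. X 6735355 to 6740061, 4707 bp wide, was covered to 43.4%, I 9379384 to 9384068, 4685 bp wide, to 58.0%, and V 723829 to 728326, 4498 bp wide, to 80.1%. II 6888178 to 6892642, 4465 bp wide, had no peak of either replicate and the highest q of these 12, 1.19e-06.

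**Figure D2:**
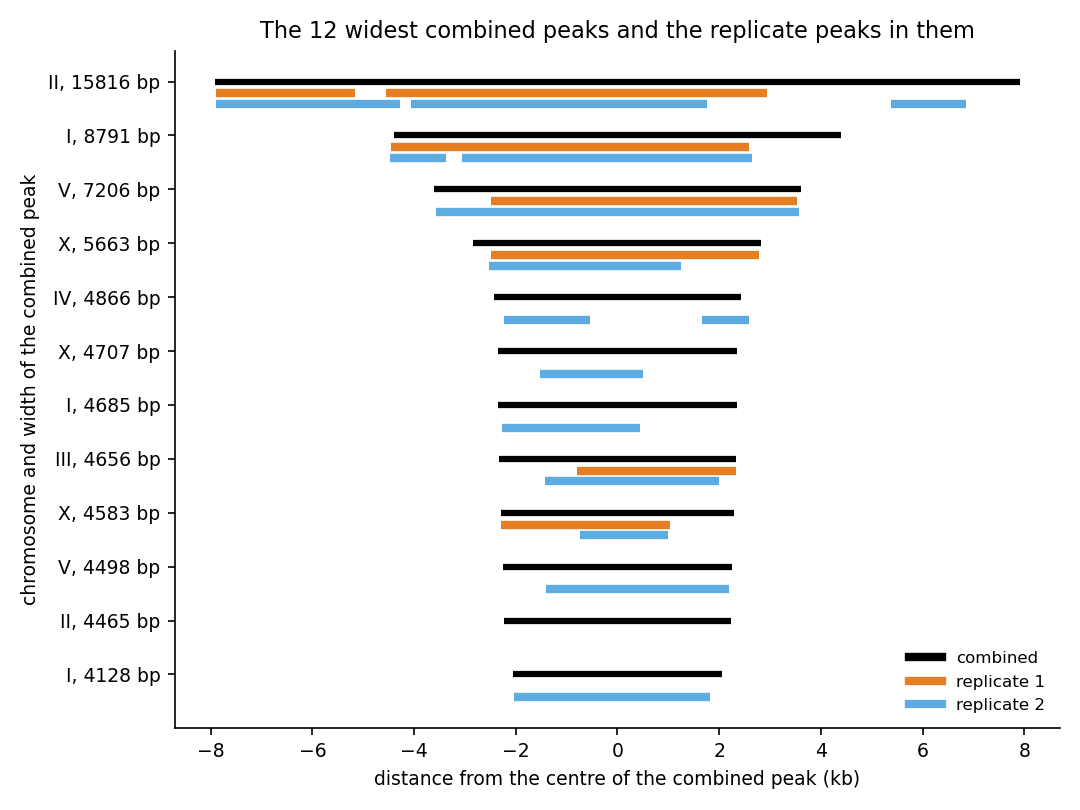
The 12 widest combined peaks (black), each drawn around its own centre with the distance in kb, and the peaks of replicate 1 (orange) and replicate 2 (blue) that overlap them. Replicate 1 has peaks in 6 of the 12 and replicate 2 in 11, where they overlap 26.1% and 39.1% of all combined peaks. The region of 15816 bp is the only one of these 12 in which replicate 1 has 2 peaks.

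The broad peaks were then set against each replicate list, at a minimum overlap of 1 bp. Replicate 1 overlapped 72 of the 234 members (30.8%, interval 24.9 to 37.1), where it overlapped 26.1% of all combined peaks. Replicate 2 overlapped 132 members (56.4%, interval 49.8 to 62.9), where it overlapped 39.1% of all combined peaks. Among the narrower peaks the shares were 24.5% for replicate 1 (interval 21.3 to 27.9) and 33.1% for replicate 2 (interval 29.5 to 36.8). The interval for broad peaks lay clear of that for narrower peaks in replicate 2, and the intervals overlapped in replicate 1. A wider peak has more bases with which to meet a replicate peak, and the part of width itself in these shares was not tested.

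By support, 65 members met both replicates (27.8%, against 21.5% of all combined peaks), and 67 met replicate 2 only (28.6%, against 17.6%). Only 7 met replicate 1 alone (2.99%, against 4.61%), and 95 met neither (40.6%, interval 34.2 to 47.2, against 56.3%). Of the narrower peaks, 93 met replicate 2 only, 35 met replicate 1 only and 418 met neither (61.7%, interval 58.0 to 65.4). The excess of replicate 2 over replicate 1 was thus 132 to 72 among the broad peaks and 224 to 166 among the narrower ones.

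The replicate 2 list is longer than the replicate 1 list, so the comparison was repeated with its 243 strongest peaks, as many as replicate 1 holds. This setting was chosen after the data had been seen. The shortened list overlapped 92 broad peaks, still above the 72 of replicate 1, and 150 narrower peaks, below the 166 of replicate 1. Of the broad peaks 36 then met replicate 2 only and 16 replicate 1 only. Of the narrower peaks 34 met replicate 2 only and 50 replicate 1 only. In shares, the shortened list overlapped 39.3% of the broad peaks (interval 33.0 to 45.9) and replicate 1 30.8% (interval 24.9 to 37.1). Of the narrower peaks the shares were 22.2% (interval 19.1 to 25.5) and 24.5% (interval 21.3 to 27.9). The order of the counts thus differed between the classes at equal list length, but the intervals of the replicates overlapped in both classes. With 1 list for each replicate the spread between libraries cannot be estimated, and the depths of the libraries are unknown.

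The replicate lists had close median widths, 492 bp in replicate 1 and 508 bp in replicate 2, but differed in their share of wide peaks. Peaks of 900 bp or wider made up 40 of 243 peaks in replicate 1 (16.5%, interval 12.03 to 21.7) and 91 of 367 in replicate 2 (24.8%, interval 20.5 to 29.5), with overlapping intervals. Of these, 38 and 90 lay in broad combined peaks, and the other 3 met narrower combined peaks. The exceptions were I 6834962 to 6836088 and IV 11118582 to 11119647 in replicate 1 and I 6835055 to 6835993 in replicate 2. They met combined peaks of 898, 888 and 898 bp, all just under the limit.

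Wider peaks were more often in replicate 2. This list overlapped 18.5% of the combined peaks under 400 bp, 40.2% of those from 400 to under 600 bp and 39.4% of those from 600 to under 900 bp. Its share was 47.2% from 900 to under 1000 bp, 52.0% up to 1500 bp, 58.8% up to 2000 bp, 61.9% up to 3000 bp and 75% of the 24 widest (interval 53.3 to 90.2). Replicate 1 also rose below 900 bp, from 14.4% under 400 bp to 29.0% and 29.7% in the next 2 classes. It showed no such order within the broad peaks, with shares of 38.9%, 26.5%, 35.3%, 23.8% and 41.7% over the 5 broad classes. Wider peaks have more bases with which to meet a replicate peak, and the part of width itself was not tested. Over the 66 members of 2000 bp or more, replicate 2 overlapped 44 (66.7%, interval 54.0 to 77.8, against 39.1% of all combined peaks). Replicate 1 overlapped 20 (30.3%, interval 19.6 to 42.9), near its 26.1% of all combined peaks.

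**Figure D3:**
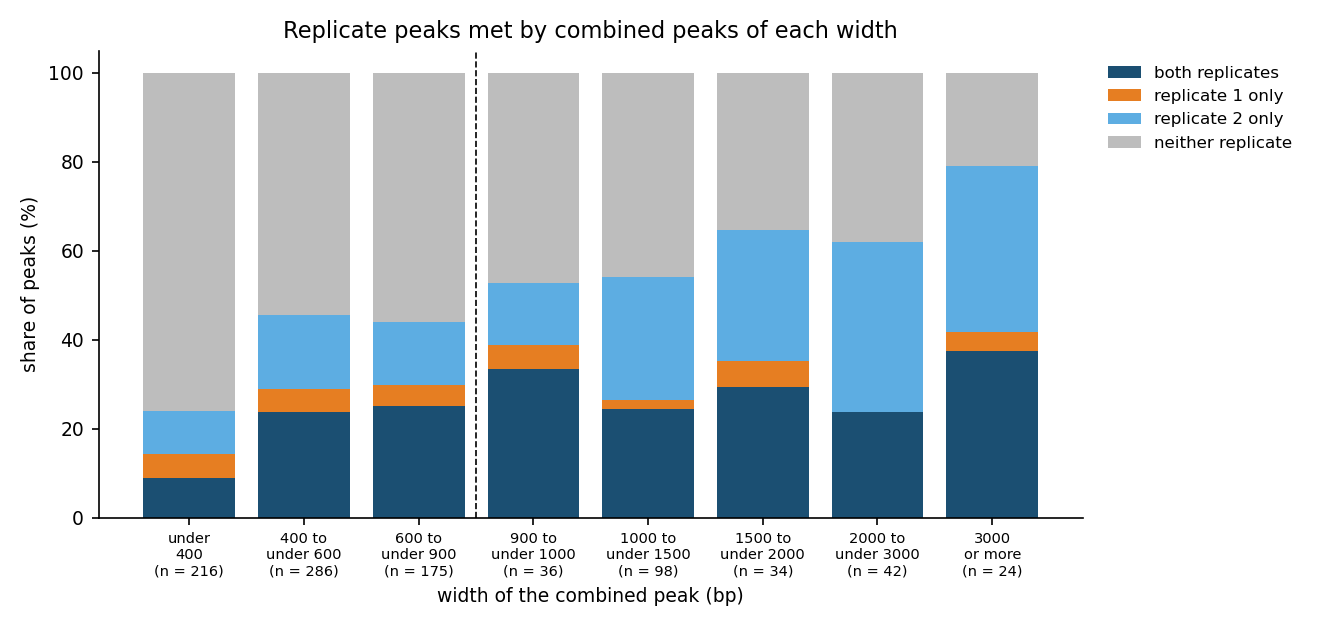
Share of combined peaks (%) in each width class (bp) that met both replicates, a single replicate or neither; n is the number of peaks and the dashed line marks 900 bp. The part met by replicate 2 only is 13.9% from 900 to under 1000 bp and 37.5% at 3000 bp or more.

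Broad peaks also had lower q, and stronger peaks of the combined list are more often in the replicate lists, so support was also read at like q. The median −log10 q was 8.35 (interval 7.80 to 8.83) for the broad and 6.22 (interval 5.99 to 6.49) for the narrower peaks. The combined list was cut into 5 equal parts by q, the first holding the strongest peaks. The broad peaks numbered 69, 63, 35, 38 and 29 in these parts.

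Within the strongest part, replicate 2 overlapped 64 of 69 broad peaks (92.8%) and 107 of 114 narrower ones (93.9%). Replicate 1 overlapped 51 of 69 broad peaks (73.9%, interval 61.9 to 83.7) and 101 of 114 narrower ones (88.6%, interval 81.3 to 93.8). In the second part replicate 1 overlapped 28.6% of the broad and 37.0% of the narrower peaks, and replicate 2 overlapped 68.3% and 55.5%. In the middle part the replicate 2 shares were 37.1% (interval 21.5 to 55.1) and 18.4% (interval 12.5 to 25.6). In the weakest 2 parts replicate 2 overlapped 12 of 67 broad peaks (17.9%, interval 9.61 to 29.2). Replicate 1 overlapped 0 of these 67, which has an upper bound of 5.36%. Among all combined peaks of any q the shares were 39.1% for replicate 2 and 26.1% for replicate 1. At like q, replicate 1 thus held a smaller share of the broad than of the narrower peaks in each of the 5 parts. In the weakest 2 parts it met no broad peak, so any narrower peak met there sets this order, and little can be read from it. Replicate 2 held a larger share in 4 of the 5, all but the strongest. The intervals of broad and narrower peaks overlap in every part and for both replicates.

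**Figure D4:**
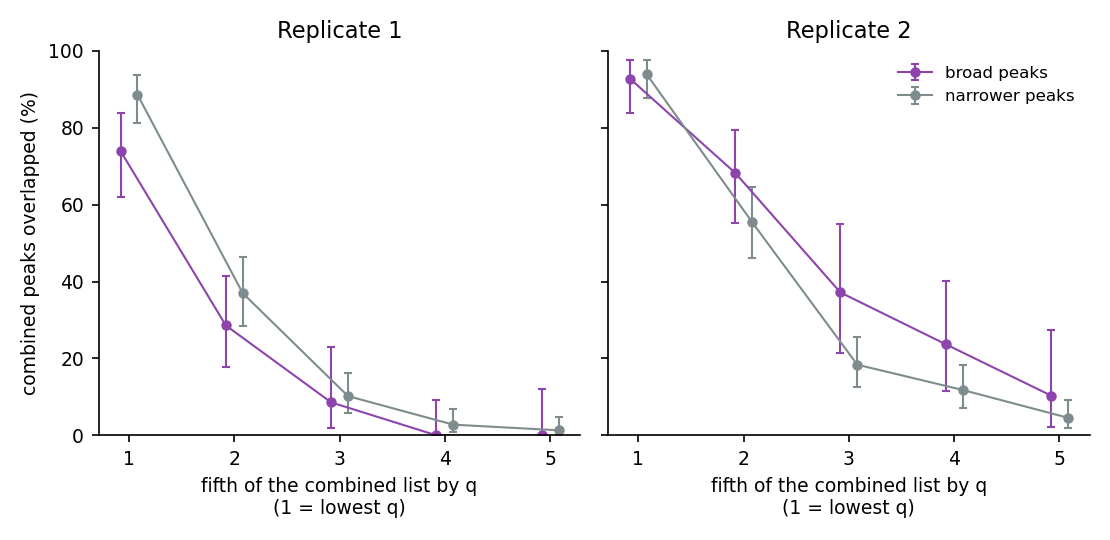
Share of combined peaks (%) overlapped by replicate 1 (left) and replicate 2 (right) in each of 5 equal parts of the combined list, ordered from the lowest q; bars are exact 95% intervals over peaks. In the strongest part replicate 1 overlaps 73.9% of the broad and 88.6% of the narrower peaks, and replicate 2 overlaps 92.8% and 93.9%.

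In the 65 members met by both replicates, the replicate values were close to those of narrower peaks. The median of the lowest q in a member, as −log10 q, was 7.77 in replicate 1 for broad and 7.51 for narrower peaks. In replicate 2 it was 9.86 for broad (interval 8.36 to 11.6) and 8.44 for narrower peaks (interval 7.65 to 9.24). The replicate 2 value was the higher in 49 of the 65 broad peaks (75.4%, interval 63.1 to 85.2) and in 86 of 131 narrower ones (65.6%, interval 56.9 to 73.7).

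The 67 members in replicate 2 only had a median combined −log10 q of 8.27 (interval 7.96 to 9.32), against 15.0 for the 65 in both replicates (interval 13.3 to 18.5). After I 7656502 to 7660629, the strongest of the 67 in replicate 2 only were III 9050979 to 9054914 (3936 bp, q = 1.83e-20), I 9379384 to 9384068 (q = 5.02e-20) and III 1923329 to 1925748 (2420 bp, q = 1.38e-19). Replicate 2 covered 45.1%, 58.0% and 35.7% of them. The strongest of the 7 in replicate 1 only was IV 3644821 to 3648044 (3224 bp, q = 5.47e-12), of which replicate 1 covered 25.4%. Next came V 19521650 to 19523157 (1508 bp, q = 2.14e-11), covered to 95.8%, and III 1533156 to 1534059, covered to 81.2%. The fourth was I 6554134 to 6555387 (1254 bp, q = 5.88e-10), covered to 42.9%. The best of these 4 combined values was weaker than those of all 4 named regions of replicate 2. The former were the strongest of 7 members and the latter the strongest of 67. The larger group is likelier to hold strong members, so nothing is read from this order.

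The 95 members with no replicate peak had a median width of 1285 bp (interval 1117 to 1396), against 1182 bp for members in both replicates (interval 1095 to 1649) and 1610 bp for members in replicate 2 only. They made up 47.2% of the members under 1000 bp and 5 of the 24 members of 3000 bp or more. Their median −log10 q was 5.53, close to the 5.31 of narrower peaks in neither. The strongest were I 12039410 to 12041330 (1921 bp, q = 2.00e-15), I 3822530 to 3825240 (2711 bp, q = 3.77e-14), V 20418178 to 20420551 (2374 bp, q = 4.24e-14), II 14598169 to 14601398 (3230 bp, q = 2.93e-12) and I 6090954 to 6093124 (2171 bp, q = 2.03e-11). All 5 were wider than the median member. The weakest members, V 4823547 to 4824880 (q = 7.77e-05), X 8155572 to 8156771 (q = 7.06e-05) and III 8354483 to 8355392 (q = 6.37e-05), were also in neither list.

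Few members were split in the replicates. Only 5 of 234 held 2 or more peaks of a replicate (2.14%, interval 0.70 to 4.92), against 0.549% of all combined peaks and 0 of the 677 narrower ones. All 5 were 3000 bp or wider: the regions of 15816 and 8791 bp, IV 17276937 to 17281802, III 9050979 to 9054914 and III 8799690 to 8802899. The last, 3210 bp wide, held 2 replicate 2 peaks covering 80.3%. Peaks of a replicate list lay at least 608 bp apart in replicate 1 and 211 bp apart in replicate 2. A narrower combined peak thus had less room to meet 2 of them, and the part of width in these shares was not tested. A pair of replicate peaks, counted over both lists, was found in 66 members, in 63 of them as 1 peak in each list. The first 4 of these 66 by chromosome and start were I 16465 to 17457, I 8815595 to 8816962, I 10553550 to 10554581 and I 12966234 to 12967212. Replicate 1 covered 71.5%, 57.0%, 80.8% and 71.0% of them, and replicate 2 covered 51.8%, 34.7%, 84.6% and 94.3%.

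The replicates usually called only part of a broad peak. Over all 234 members the median share covered was 0% by replicate 1, 37.6% by replicate 2 (interval 0 to 47.5) and 45.1% by either (interval 34.3 to 54.7). Among overlapped peaks, replicate 1 covered a median of 71.9% of a broad peak (interval 62.3 to 81.2, n = 72) and 88.7% of a narrower one (interval 87.6 to 91.2, n = 166). Replicate 2 covered 71.8% (interval 64.2 to 82.1, n = 132) and 87.7% (interval 86.0 to 89.3, n = 224). Less than 50% was covered in 20 of 72 broad peaks by replicate 1 and in 36 of 132 by replicate 2, but in 2 of 166 and 3 of 224 narrower ones. These shares are divided by the combined width that chose the members. That choice can by itself lower them in broad peaks, and its part was not tested. In bases, 19.4% of the broad length lay in peaks of both replicates, 23.6% in replicate 2 only, 3.92% in replicate 1 only and 53.1% in neither. For the narrower length the shares were 16.5%, 12.98%, 5.80% and 64.7%.

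**Figure D5:**
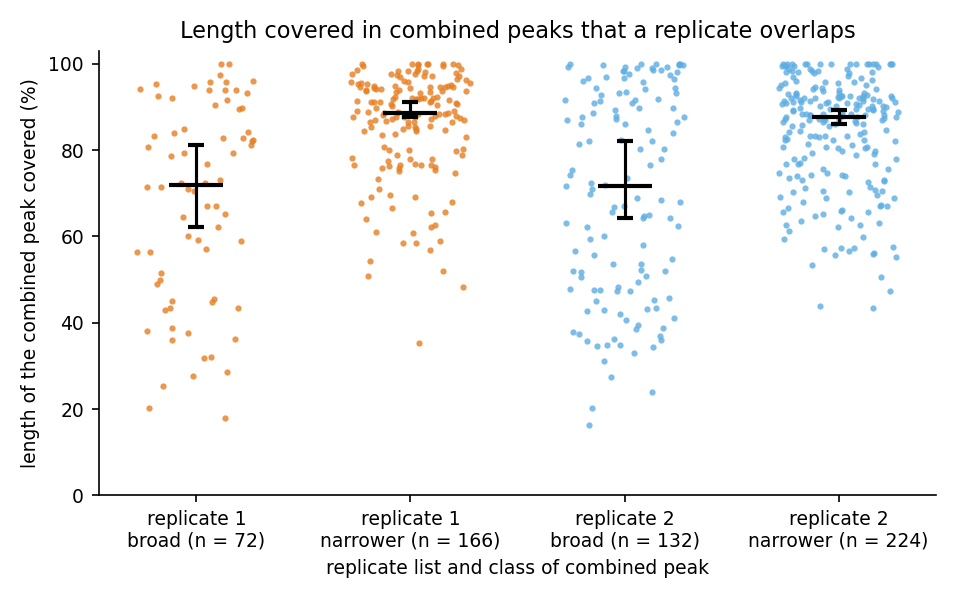
Length of each combined peak (%) inside peaks of replicate 1 (orange) or replicate 2 (blue), for peaks that the replicate overlaps; black bars are medians with 95% intervals. The medians are 71.9% and 71.8% in broad peaks and 88.7% and 87.7% in narrower ones, and the broad peaks spread over most of the range.

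The edges showed the same. In the 63 members with 1 peak in each replicate, the 2 replicate peaks overlapped each other in every case. The replicate 1 peak was shorter than the member by a median of 318 bp, both ends summed, and the replicate 2 peak by 333 bp. In the 131 narrower peaks of this kind the medians were 50 and 57 bp. Both edges lay within 100 bp of the combined edges in 11 of 63 broad peaks for replicate 1 and in 16 of 63 for replicate 2, but in 96 and 97 of 131 narrower ones. A shift of 100 bp is a smaller part of a broad peak, so relative width was also read. The replicate peak had a median of 72.3% (replicate 1) and 74.3% (replicate 2) of the width of the broad peak. For narrower peaks the medians were 89.7% and 89.4%. This ratio and the summed lengths above also rest on the combined width that chose the members. That choice can by itself set the classes apart, and its part was not tested. Coverage to at least 90% by each replicate was found for similar shares of both classes, with overlapping intervals: 13 of 234 broad peaks (5.56%, interval 2.99 to 9.31) and 36 of 677 narrower ones (5.32%, interval 3.75 to 7.29).

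The distance to neighbouring peaks was compared next. The bases between a member and the nearest other combined peak had a median of 16.3 kb (interval 10.4 to 33.8), against 30.7 kb (interval 28.1 to 36.3) for the narrower peaks, and these intervals overlap. With a q limit 10 times lower, which leaves fewer peaks, the medians were 35.5 kb and 43.7 kb. A gap under 1 kb was found for 43 of 234 broad peaks (18.4%, interval 13.6 to 23.9) and 42 of 677 narrower ones (6.20%, interval 4.51 to 8.29). The nearest peak was itself broad for 34 of the 43 and for 9 of the 42. The smallest gap in the combined list was 202 bp, between I 8133275 to 8134578 and I 8134781 to 8136006, both members and both in replicate 2 only. The widest member, on chromosome II, lay 546 bp from another, II 10558206 to 10560020 (1815 bp), which was in replicate 1 only. On the X chromosome, 233 bp separated the members X 6735355 to 6740061 and X 6740295 to 6745957. Over all gaps, the nearest peak was broad for 84 of the 234 members (35.9%) and for 154 of the 677 narrower peaks (22.7%).

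Runs of members with gaps under 5 kb numbered 23 and held 52 members. In all, 6 runs held 3, and no narrower peak lay between their members. On chromosome I, 5372377 to 5380289 held members of 1359, 1422 and 1117 bp with no replicate peak, and 12039410 to 12045975 held members of 1921, 941 and 1040 bp with 1 replicate 2 peak. III 1920862 to 1927041 held members of 1010, 2420 and 923 bp, with 1 replicate 1 peak and 3 replicate 2 peaks. IV 4468087 to 4473874 held members of 1231, 2210 and 1390 bp with 1 replicate 2 peak, and 83.5% of its 5788 bp lay in the members. The others were on X, at 4141971 to 4148425, where members filled 91.1% of 6455 bp, and at 6735355 to 6750672, where they filled 79.4% of 15318 bp. Each of these runs on X held 3 replicate 2 peaks, and replicate 1 had 0 and 1.

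Members lay on all 6 chromosomes and their shares ran from 12.4% to 20.1%, where those of the narrower peaks ran from 10.6% to 24.5%. Chromosome III held 47 (20.1%), chromosome IV 43 (18.4%), chromosome I 42 (17.9%), the X chromosome 38 (16.2%), chromosome V 35 (15.0%) and chromosome II 29 (12.4%). The X chromosome held 10.6% of the narrower peaks (interval 8.41 to 13.2, against 11.8 to 21.6 for the broad). Chromosome III held 24.5% of the narrower peaks (interval 21.3 to 27.9, against 15.1 to 25.8). Of the peaks on X, 34.5% were broad (interval 25.7 to 44.2), and on the autosomes the share ran from 22.1% on III to 27.8% on V. In bases, each chromosome held between 15.3% (II) and 17.8% (I) of the broad length. The chromosomes differ in length. Per Mb of span up to the last peak, the number of broad peaks ran from 1.68 on V to 3.43 on III. That of narrower peaks ran from 4.07 on X to 12.1 on III.

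Support of the members differed between chromosomes. On chromosome I, 5 of 42 met both replicates, 14 met replicate 2 only and 22 met neither (52.4%, interval 36.4 to 68.0). Of the 120 narrower peaks of that chromosome, 6 met replicate 2 only (5%, interval 1.86 to 10.6, against 19.6 to 49.5 for the broad) and 96 met neither. On chromosome III, 18 of 47 members met both, the highest share of the 6 chromosomes (38.3%), and 35 of the 166 narrower peaks there did (21.1%). On X the counts were 12 in both, 12 in replicate 2 only, 14 in neither and 0 in replicate 1 only. Of the 72 narrower peaks on X, 14 met both, 10 replicate 2 only, 47 neither and 1 replicate 1 only. Median coverage by replicate 2 of overlapped members was 88.5% on X and 58.0% on I, and that of overlapped narrower peaks was 91.2% on X and 89.0% on I. The gap to the nearest peak had a median of 3.41 kb for members on I (interval 1.78 to 14.2) and 30.2 kb for the narrower peaks there (interval 19.3 to 39.3). On X it was 49.2 kb (interval 10.4 to 70.9) and 79.9 kb (interval 44.8 to 96.4).

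Along the autosomes, 81 of 196 members had their midpoint in the central part, between 33.3% and 66.7% of the way to the last peak (41.3%, interval 34.4 to 48.6). Of the narrower peaks, 218 of 605 did (36.0%, interval 32.2 to 40.002). These shares differed by less than their intervals. The share was higher among the 24 widest members over all chromosomes, 16 in the central part (66.7%), and lowest from 900 to under 1000 bp, 6 of 36 (16.7%). The chromosome ends also held members. The outermost 10% of the span, counted from both ends together, held 25 of 234 (10.7%, interval 7.03 to 15.4), 8 of them on chromosome I, against 53 of 677 narrower peaks (7.83%, interval 5.92 to 10.1). IV 17276937 to 17281802 and V 20773344 to 20776026, named after their values were seen, were the last combined peaks of their chromosomes.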

How the data were processed

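The authors deposited 3 peak lists (replicate 1, replicate 2 and combined) with a q-value, that is a corrected p-value, for each peak. Peaks were called with PeakSeq on WormBase WS180, per the file headers and columns. No source used here gives the aligner, versions, q limit, use of the input or way of combining replicates. Chromatin was fixed in 2% formaldehyde and 10% of the supernatant set aside as input, per the labels' protocols; input libraries were not analysed here. No sample's depth is known.

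Members were all combined rows of at least 900 bp. The members and rules were chosen with earlier results of these data known. Overlap meant 1 bp; distances were bases between edges; chromosome spans ended at the last peak end in any list. Regions named were, by rule, the 12 widest; the 8 strongest members; the 6 with most replicate peaks; the strongest in neither list (5) and in a single list (4 each); the 3 weakest; 3 on each side of the limit; the widest replicate peaks; and the 4 runs with most members, ties going to the lower chromosome and start. Any others were chosen after their values were seen. Interval code was tested on simulated data (617 peaks, 0 mismatches with a base-by-base count). Alternatives varied the width limit (800, 1000, 2000 bp), overlap, q limit, merging, distance and replicate lists. Python 3.11.15, numpy 2.4.6, scipy 1.17.1 and matplotlib 3.10.9 were used.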

Additional observations from a re-analysis of the deposited data

How the results depend on the processing

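Of 131 alternative values for 26 results, 110 stayed within the interval (or, for a count, within 1.5 times) of the value reported. Leaving out a replicate list changes what is counted: the share of broad peaks in every remaining list ran from 30.8% to 56.4%, and in none from 43.6% to 69.2%. For narrower peaks these ranges were 24.5% to 33.1% and 66.9% to 75.5%. A width limit of 2000 bp gave 31.8% of members in neither list, 7.58% with 2 or more peaks of a replicate and 21.2% on chromosome V. Without chromosome I, 57.8% of narrower peaks were in neither list. Restricted to overlapped members, median coverage was 71.9% by replicate 1, 71.8% by replicate 2 and 77.9% by either; over summed bases, replicate 1 covered 23.3%. A q limit 10 times lower gave median gaps of 35.5 kb for broad and 43.7 kb for narrower peaks, with fewer peaks in the list. The wider central part of the autosomes, between 25% and 75% of the span, held 57.7% of broad and 52.6% of narrower peaks. Per kb of width, the median −log10 q of members was 5.34, which dividing by the width that chose them lowers by construction. With as many replicate 2 as replicate 1 peaks, replicate 2 overlapped 39.3% of broad and 22.2% of narrower peaks. Merging peaks within 200 bp changed no count, since no gap was that small. No paired analysis was possible because the numbers are shared only with input libraries, for which no peak list was analysed here. Depth is unknown, so a region missing from a replicate list was not called there and is not shown to be unbound.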

Other observations

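At the other end of the width range, 14 of the 911 combined peaks were under 200 bp wide, the narrowest 20 bp, while the narrowest peaks of the replicate lists were 200 and 208 bp. Of these 14, 1 was overlapped by a replicate peak.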
